A study of Mus musculus with 8 samples.

Results

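Blood and lymph vessel genes were examined in whole lungs of mouse pups labelled Fgf10+/-, a genotype with 1 disrupted copy of Fgf10, set against lungs of wild-type pups. The list of 37 genes was drawn up by name: pan-endothelial genes, genes of the 2 lung capillary types, large vessel genes, lymphatic genes, and the secreted signals and co-receptors of vessel growth. A gene was included where the array annotation gives its symbol to a feature. This held for 36 of the 37, out of 20842 named genes on the array. Ccl21a, a lymphatic chemokine, was not named there and is not analysed here.

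The series holds 8 lungs, 4 from pups labelled Fgf10+/- (titled TG) and 4 from pups labelled wild type. All pups had a C57Bl/6J background and were kept in a chamber at 20% oxygen from postnatal day 0 to day 3, which is the age the labels give. Each lung RNA was labelled with Cy3 and hybridised to a 1-colour array, and the submitters call the samples independent. How the Fgf10 allele was built is not stated in the labels. The samples are whole lungs, so fewer cells of a type and less RNA per cell cannot be told apart.

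The lung capillary bed has 2 endothelial cell types in the mouse. Aerocytes, the large thin cells through which gas is exchanged, express carbonic anhydrase Car4 and the endothelin receptor Ednrb. General capillary cells, which act as progenitors, express Gpihbp1 and the apelin receptor Aplnr. Vascular endothelial growth factor A (Vegfa), made mostly by alveolar epithelium, acts on the receptors KDR and FLT1, and VEGF-C and VEGF-D act on FLT4, the receptor of lymphatic endothelium. FGF10 itself is made by lung mesenchyme and acts on the epithelium.

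Values are log2 signals that every array shares the distribution of, with a median of 3.47 over all features, which serves here as a mark of the floor. A difference is always the mean of the Fgf10+/- arrays minus the mean of the wild-type arrays, so that 1 unit is a doubling. The targeted gene did not check the labels. Fgf10 stood at 7.55, 7.96, 7.96 and 8.33 in the lungs labelled Fgf10+/-, against 7.49, 7.81, 6.89 and 7.64 in wild-type lungs (difference 0.49, SE 0.24, limma adjusted p = 0.507). All 10 Fgf10 features had a higher mean in the lungs labelled Fgf10+/-, by 0.07 to 0.49. No source used here says whether its features lie inside or outside the altered stretch, so the directions below rest on the labels. Wild-type replicate 4 stood apart, with a mean log2 deviation of the skeletal muscle markers of 3.58 and at most -0.03 in the other 7 lungs.

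The vessel genes were nearly level between the genotypes, with a single gene, Figf, whose groups did not overlap. The median difference of the 36 genes was 0.03, against -0.001 over all genes, and 20 had a higher and 16 a lower mean in the lungs labelled Fgf10+/-. With limma and Benjamini-Hochberg adjustment over all genes, 0 of the 36 passed an adjusted p of 0.05, as did 0.00% of all genes. At an unadjusted p under 0.05 there were 2 of the 36 (5.6%), both higher, against 11.0% of all genes in either direction and 4.74% higher and 6.29% lower. That number was 6 without wild-type replicate 4, 5 without Fgf10+/- replicate 1 and 1 without each of 5 other lungs. No share of all genes was set beside these leave-out counts, so they are not read as a result about the 36. The groups did not overlap for 1 of the 36 (2.8%), which was higher, against 7.39% of all genes, 2.99% higher and 4.40% lower. With both directions added together, the 2 shares of the 36 lay below those of the array as a whole, and among higher genes alone they were near them.

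The size of change that the data leave room for was small for most of these genes. The 95% interval of the difference lay within a 1.5-fold change either way (0.58 on the log2 scale) for 26 of the 36 and within a 2-fold change for 33. All 12 pan-endothelial genes and both large vessel genes were among the 26. Flt4, also among the 26, and Prox1, among the 33, had mean signals of 4.45 and 3.38. So near the floor, signal over background limits what an interval can bound. The 3 genes whose intervals reached past a 2-fold change were Hpgd, Angpt2 and Reln.

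**Figure D1:**
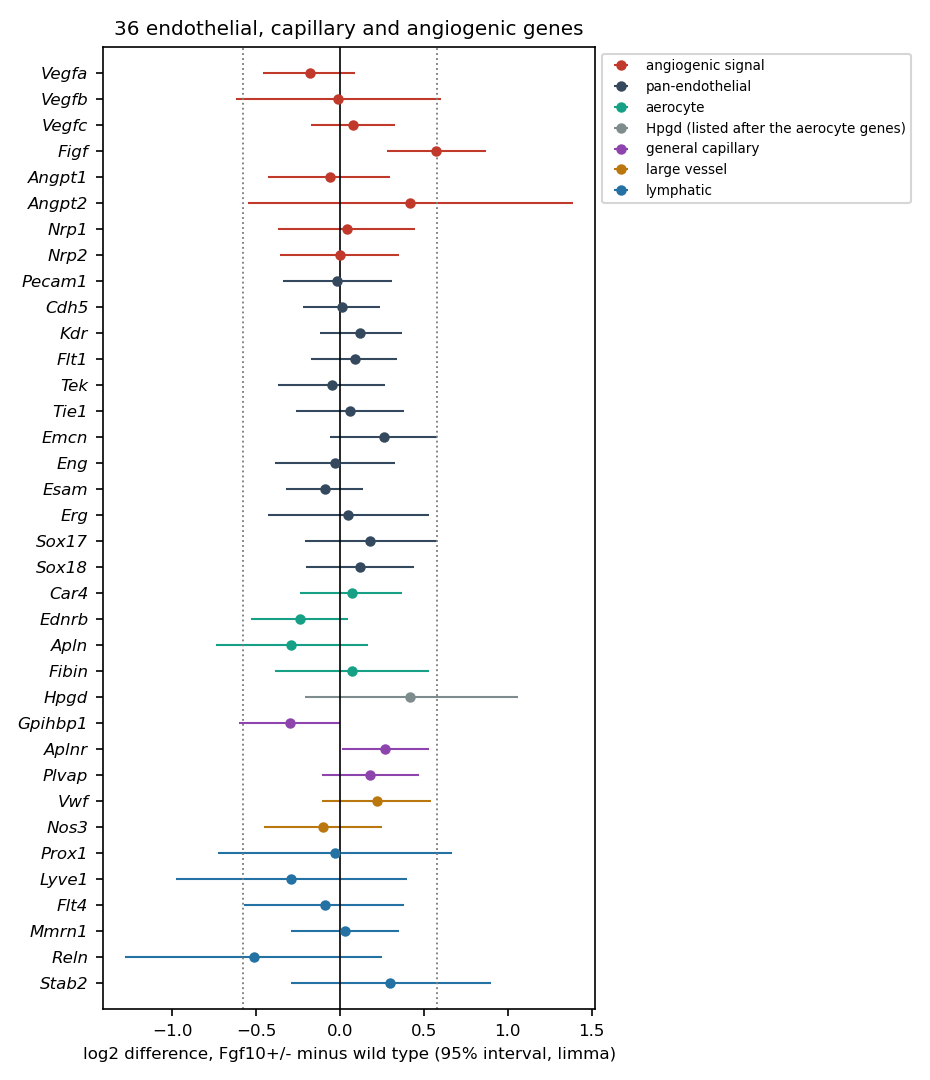
Log2 difference (Fgf10+/- minus wild type, horizontal axis) of each of the 36 genes, coloured by role. Points are differences of 4 against 4 arrays, bars are 95% intervals from limma, and dotted lines mark a 1.5-fold change. Most intervals cross 0, and that of Figf runs from 0.28 to 0.87.

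Among the secreted signals, Figf was higher in the lungs labelled Fgf10+/-. Figf, now named Vegfd, encodes vascular endothelial growth factor D, a secreted ligand of FLT4 that is known from lung mesenchyme. Its log2 signal was 11.93, 12.12, 11.97 and 12.28 in the lungs labelled Fgf10+/-, against 11.33, 11.48, 11.47 and 11.71 in wild-type lungs. The lowest lung labelled Fgf10+/- was thus above the highest wild-type lung. The difference of 0.57 (SE 0.13, a ratio of 1.49) had a limma adjusted p of 0.184, which does not pass. Its two-sided exact permutation p was 0.0286, the smallest that 70 assignments can give. Any gene with groups apart has that permutation p, so it only restates the separation. Over 20 alternative settings the difference ran from 0.51 to 0.68 and the adjusted p from 0.00131 to 0.405. It passed where the variance was allowed to depend on signal in a robust fit (0.00131) and where the dimmer genes, those under the median, were not tested (0.0346).

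The array carries 10 features for Figf, and the groups did not overlap on any of them. Their differences ran from 0.52 to 0.57. These features read the same 8 RNAs and are not separate measurements of the animals. Figf lies on the X chromosome and the sex of the pups is not given in the labels. Xist, the RNA of the inactive X, was high in 2 of the 4 lungs labelled Fgf10+/- and in 3 of the 4 wild-type lungs. With Xist (high or low) as a covariate, chosen after seeing the data, the Figf difference was 0.54 (limma adjusted p = 0.273). In these libraries markers of dividing cells were also higher, with 9 of 9 measured markers at a higher mean. Their mean deviation was 0.28 to 0.39 in the lungs labelled Fgf10+/-, against -0.57 to -0.11 in wild-type lungs, with Aurkb near the floor in both groups. Groups were apart for 8 of the 9, against 2.99% of all genes apart and higher. Markers of alveolar type 2 cells were lower, at -0.34 to -0.23 in the lungs labelled Fgf10+/- against 0.26 to 0.39 in wild-type lungs. For 9 of these 10 markers the groups did not overlap, against 4.40% of all genes apart and lower. Sftpc, at 15.98 in both groups, was level at the top of the scale. Cardiac muscle markers were lower as well, 10 of 10 by mean, at -0.52 to -0.10 in the lungs labelled Fgf10+/- against 0.17 to 0.61 in wild-type lungs. Groups were apart for 5 of these cardiac markers. Of 10 alveolar type 1 markers 9 had a lower mean, and the list median was -0.30. Igfbp2 went the other way, higher by 1.37 with groups apart. Mean deviations, Igfbp2 included, were -0.14 to 0.03 in the lungs labelled Fgf10+/- against 0.04 to 0.08 in wild-type lungs. Groups were apart and lower for 5 of the 10. The part of any of these 4 lists in the Figf difference was not tested.

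**Figure D2:**
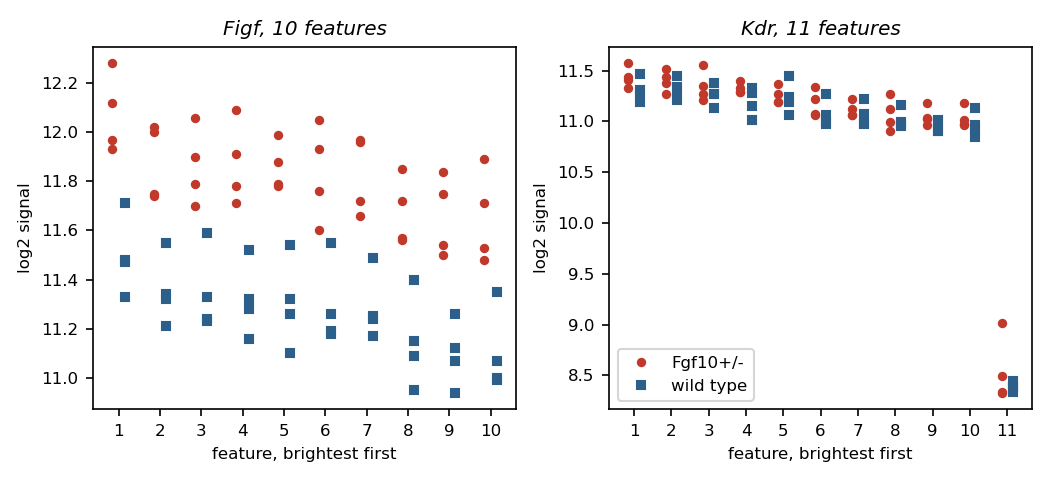
Log2 signal (vertical axis) of every feature of Figf and of Kdr, ordered from the brightest, in the 4 Fgf10+/- arrays (circles) and the 4 wild-type arrays (squares). The 2 groups of points are apart on all 10 Figf features and overlap on all 11 Kdr features.

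The other VEGF ligands were close to level. Vegfa stood at 12.20, 12.22, 12.05 and 12.38 in the lungs labelled Fgf10+/-, against 12.33, 12.60, 12.31 and 12.33 in wild-type lungs. The groups overlapped through Fgf10+/- replicate 4, and the difference was -0.18 (95% interval -0.46 to 0.09, limma adjusted p = 0.634). All 3 Vegfa features had a lower mean, at -0.21 to -0.17. Vegfc, which shares the receptor FLT4 with Figf, had 9.81, 10.08, 9.84 and 9.78 in the lungs labelled Fgf10+/-, against 9.77, 9.73, 9.92 and 9.78 in wild-type lungs. Its difference of 0.08 had a 95% interval of -0.17 to 0.33. The intervals of the 2 FLT4 ligands, Figf and Vegfc, overlap, and the difference between them was not tested.

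Vegfb, which binds FLT1 and is known from heart and other muscle, was 7.96, 7.87, 8.11 and 8.01 in the lungs labelled Fgf10+/-, against 7.72, 7.72, 7.69 and 8.86 in wild-type lungs. The high value belongs to wild-type replicate 4, the lung in which skeletal muscle, cartilage and fat markers stood out. Its cardiac muscle markers did not stand out, at a mean deviation of 0.17, the lowest of the 4 wild-type lungs. The Vegfb difference was -0.01 with that lung and 0.28 without it (limma adjusted p = 0.347), and the part of the other tissues in it was not tested.

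The DNA just before the start of the 2 FLT4 ligand genes is shown because 1 of the pair had groups apart and the other did not. The difference between the 2 genes was not tested, nor was any part of these sequences in it. Both runs are the 250 bases before the RefSeq start (build GRCm38.p6), 5′ to 3′ on the gene's strand. Figf lies at chrX:164373272-164373521 and Vegfc at chr8:54077282-54077531, both on the plus strand, and capitals mark the letters TATAAA.
Figf: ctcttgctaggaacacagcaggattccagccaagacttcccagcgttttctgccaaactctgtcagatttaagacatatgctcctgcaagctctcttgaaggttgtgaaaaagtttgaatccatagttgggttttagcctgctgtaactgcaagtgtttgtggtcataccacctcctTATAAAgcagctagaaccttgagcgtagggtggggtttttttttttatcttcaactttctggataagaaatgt
Vegfc: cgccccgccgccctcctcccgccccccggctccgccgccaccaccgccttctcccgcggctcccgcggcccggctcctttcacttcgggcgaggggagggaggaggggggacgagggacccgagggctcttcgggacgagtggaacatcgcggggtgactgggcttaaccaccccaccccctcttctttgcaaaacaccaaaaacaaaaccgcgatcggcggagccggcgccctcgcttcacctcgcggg
The TATAAA run of Figf begins 73 bases before the start, and the window of Vegfc holds none. Promoter entries were found for 23 of the 36 genes. On either strand TATAAA occurred in 4 of the 23 (17.4%), namely Erg, Figf, Flt1 and Prox1, against 14.3% of 27025 genes with an entry. A string bound by ETS factors such as ERG (CAGGAAG or CCGGAAG) occurred in 5 of the 23 (21.7%), namely Apln, Car4, Emcn, Erg and Reln, against 19.0% of all. The AP-1 string TGANTCA, searched because Figf was first named as a c-fos-induced growth factor, occurred in 0 of the 23, against 7.8% of all. The shares of the first 2 strings in the vessel genes were within a few points of those of all genes.

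The angiopoietins and neuropilins gave no difference past the test. Angpt2, a context-dependent antagonist of the receptor TEK that is released by endothelium, was the most variable of the 36 genes. It had 6.75, 7.77, 7.88 and 8.12 in the lungs labelled Fgf10+/-, against 6.68, 7.65, 6.48 and 8.03 in wild-type lungs. One lung labelled Fgf10+/- and 2 wild-type lungs were low and the other 5 were high, so the groups overlapped over nearly their whole range (difference 0.42, SE 0.42). The difference was 0.71 without Fgf10+/- replicate 1 and 0.18 without wild-type replicate 3. Angpt1, the agonist of TEK made by mural cells, differed by -0.06 (SE 0.16). The VEGF and semaphorin co-receptors Nrp1 and Nrp2 differed by 0.04 (SE 0.18) and 0.00 (SE 0.15). A second, dimmer Nrp2 feature, designed on another transcript of the gene, differed by 0.35 (SE 0.20).

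Of the receptors for these signals, Kdr, the main VEGF-A receptor of endothelium, was 11.41, 11.44, 11.33 and 11.57 in the lungs labelled Fgf10+/-, against 11.31, 11.47, 11.19 and 11.28 in wild-type lungs. Its difference was 0.12 (SE 0.11, limma adjusted p = 0.734), and its 11 features ranged from 0.02 to 0.15. Flt1, a VEGF receptor that also acts as a decoy, differed by 0.09 with a 95% interval of -0.17 to 0.34. Its second feature had a mean signal of 2.66, below the array median. Flt4, the receptor of VEGF-C and VEGF-D, was dim, with 4.78, 4.68, 3.86 and 4.29 in the lungs labelled Fgf10+/-, against 4.44, 4.68, 4.43 and 4.43 in wild-type lungs (difference -0.09, SE 0.21). Tek and Tie1, the receptor and co-receptor of the angiopoietins, differed by -0.05 (SE 0.14) and 0.06 (SE 0.14).

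**Figure D3:**
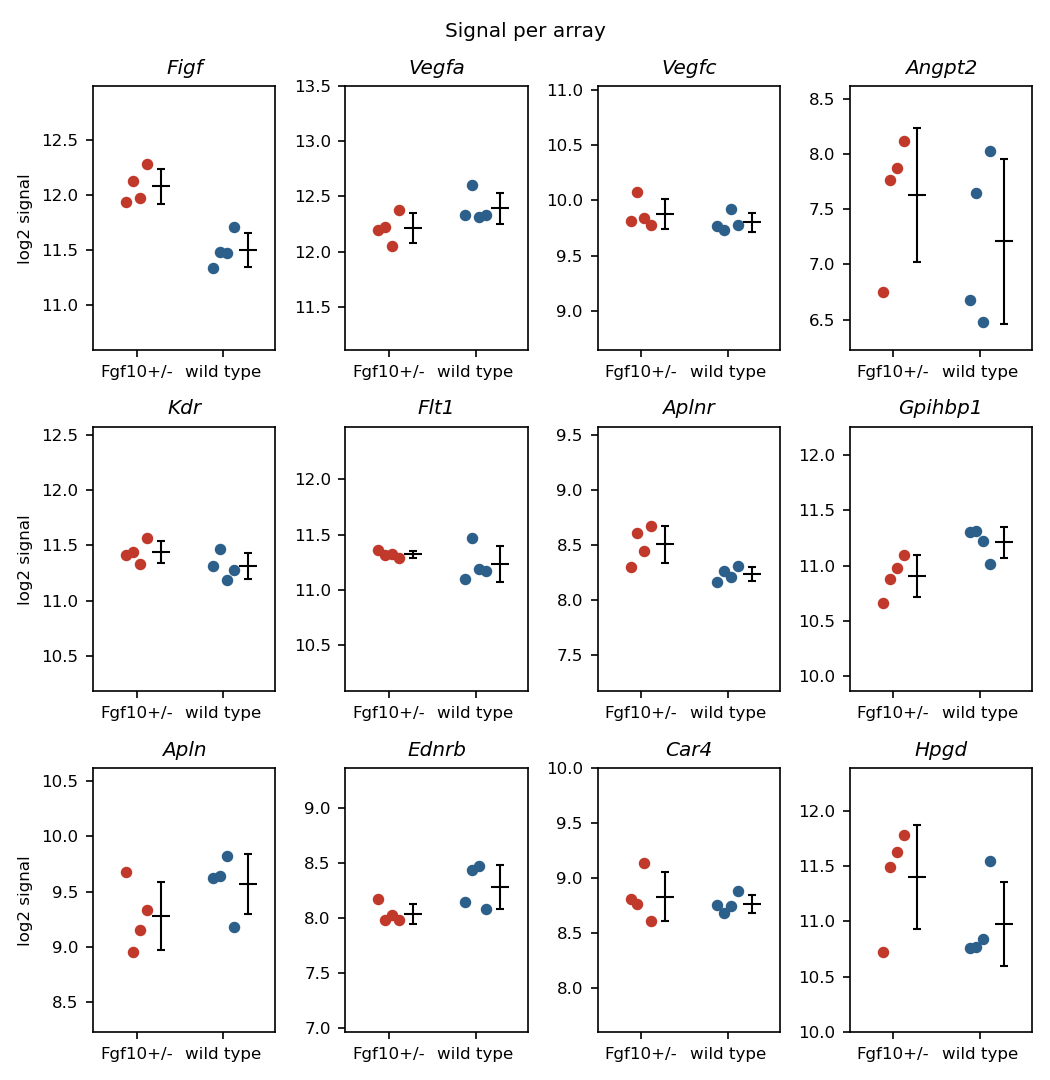
Log2 signal per array for 12 of the genes, with the 4 Fgf10+/- arrays left and the 4 wild-type arrays right in each panel. Bars beside the points are the mean and SD, and every panel spans 2.4 log2 units around its own mean. The groups are apart for Figf and overlap for the other 11 genes.

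The pan-endothelial genes were level. Of these 12 genes 8 had a higher and 4 a lower mean in the lungs labelled Fgf10+/-, the median difference was 0.06, and differences ran from -0.09 to 0.26. Their signals, 5.61 to 11.57 over all arrays, were above the array median, so endothelial RNA was present in every lung. Cdh5, the cadherin of endothelial junctions, had the highest p of the 12. It had 10.71, 10.89, 10.77 and 10.82 in the lungs labelled Fgf10+/-, against 10.72, 10.90, 10.70 and 10.82 in wild-type lungs (difference 0.01, 95% interval -0.22 to 0.24). Pecam1, a junctional adhesion molecule of all endothelium, differed by -0.02 (95% interval -0.34 to 0.31).

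Emcn, a sialomucin of capillary and venous endothelium, had the smallest p among the 12. It was 8.63, 8.98, 8.91 and 9.03 in the lungs labelled Fgf10+/-, against 8.46, 8.63, 8.53 and 8.88 in wild-type lungs. Wild-type replicate 4 lay within the range of the lungs labelled Fgf10+/-, and the difference was 0.26 (SE 0.14, exact permutation p = 0.0857, limma adjusted p = 0.549). The transcription factors differed by 0.18 (SE 0.17) for Sox17, 0.12 (SE 0.14) for Sox18 and 0.05 (SE 0.21) for Erg. A second feature of Sox17 and of Erg differed by -0.10 and -0.29, so the features of each did not share a sign. That of Erg was dim, with a mean signal of 3.91, and its difference had an SE of 0.42. Esam, another junctional molecule, and Eng, a co-receptor of BMP9 and TGF-beta signals, differed by -0.09 and -0.03.

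The general capillary genes did not move as a set, since 2 were higher and 1 was lower. Aplnr, the receptor of apelin, was 8.30, 8.61, 8.45 and 8.67 in the lungs labelled Fgf10+/-, against 8.16, 8.26, 8.21 and 8.31 in wild-type lungs. The groups overlapped only through Fgf10+/- replicate 1 and wild-type replicate 4, which were close to each other. The difference was 0.27 (95% interval 0.01 to 0.53, exact permutation p = 0.0571, limma unadjusted p = 0.0446 and adjusted p = 0.441). Gpihbp1, which anchors lipoprotein lipase to the capillary wall, went the other way. It was 10.66, 10.88, 10.98 and 11.10 in the lungs labelled Fgf10+/-, against 11.30, 11.31, 11.22 and 11.01 in wild-type lungs. Wild-type replicate 4 was the only wild-type lung within the range of the lungs labelled Fgf10+/-. The difference was -0.30 (95% interval -0.60 to 0.00, exact permutation p = 0.0571, limma adjusted p = 0.455), and it was -0.37 without that lung. Plvap, which forms the diaphragms of fenestrae and caveolae, differed by 0.18 (SE 0.13) on its brighter feature and 0.17 on the other.

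The aerocyte genes were mixed as well, with a median of -0.09 over 4 genes, 2 higher and 2 lower. Car4, the marker that gave aerocytes their first name, was 8.81, 8.77, 9.14 and 8.61 in the lungs labelled Fgf10+/-, against 8.76, 8.68, 8.75 and 8.88 in wild-type lungs. Its difference was 0.07 (95% interval -0.24 to 0.37), and its dimmer feature differed by -0.15, so no direction can be read. Ednrb was 8.17, 7.98, 8.03 and 7.98 in the lungs labelled Fgf10+/-, against 8.15, 8.44, 8.47 and 8.08 in wild-type lungs. Replicate 1 of the lungs labelled Fgf10+/- overlapped the wild-type lungs (difference -0.24, SE 0.13, exact permutation p = 0.0857, limma adjusted p = 0.538). The second Ednrb feature differed by -0.18.

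Apln, the ligand of the receptor encoded by Aplnr, is made by aerocytes. It was 9.68, 8.95, 9.15 and 9.33 in the lungs labelled Fgf10+/-, against 9.62, 9.64, 9.82 and 9.18 in wild-type lungs. The ranges overlapped widely, and the difference was -0.29 (SE 0.20, limma adjusted p = 0.654). Ligand and receptor thus had differences of opposite sign, neither of which passed. Fibin, a secreted protein, differed by 0.07 (SE 0.20). Hpgd, the enzyme that inactivates prostaglandins, stood at 10.72, 11.49, 11.63 and 11.78 in the lungs labelled Fgf10+/-, against 10.76, 10.77, 10.84 and 11.55 in wild-type lungs. One lung of each group sat with the other group, replicate 1 of those labelled Fgf10+/- and wild-type replicate 4. The Hpgd difference was 0.42 (SE 0.27, limma adjusted p = 0.634) and ran from 0.30 to 0.65 with each lung left out in turn.

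Large vessel genes also differed by less than their error allows to call. Vwf, the clotting factor stored in endothelial granules, was 11.77, 12.02, 11.78 and 12.04 in the lungs labelled Fgf10+/-, against 11.64, 11.82, 11.39 and 11.88 in wild-type lungs (difference 0.22, SE 0.14, limma adjusted p = 0.635). The means were apart by more than the SD of the lungs labelled Fgf10+/-, 0.15, and by about that of the wild-type lungs, 0.22. Nos3, the endothelial nitric oxide synthase, was 9.80, 9.66, 9.48 and 9.54 in the lungs labelled Fgf10+/-, against 9.70, 9.94, 9.88 and 9.37 in wild-type lungs. Its difference was -0.10 (SE 0.15), and all 11 of its features were lower, at -0.28 to -0.10, with overlapping groups on each.

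**Figure D4:**
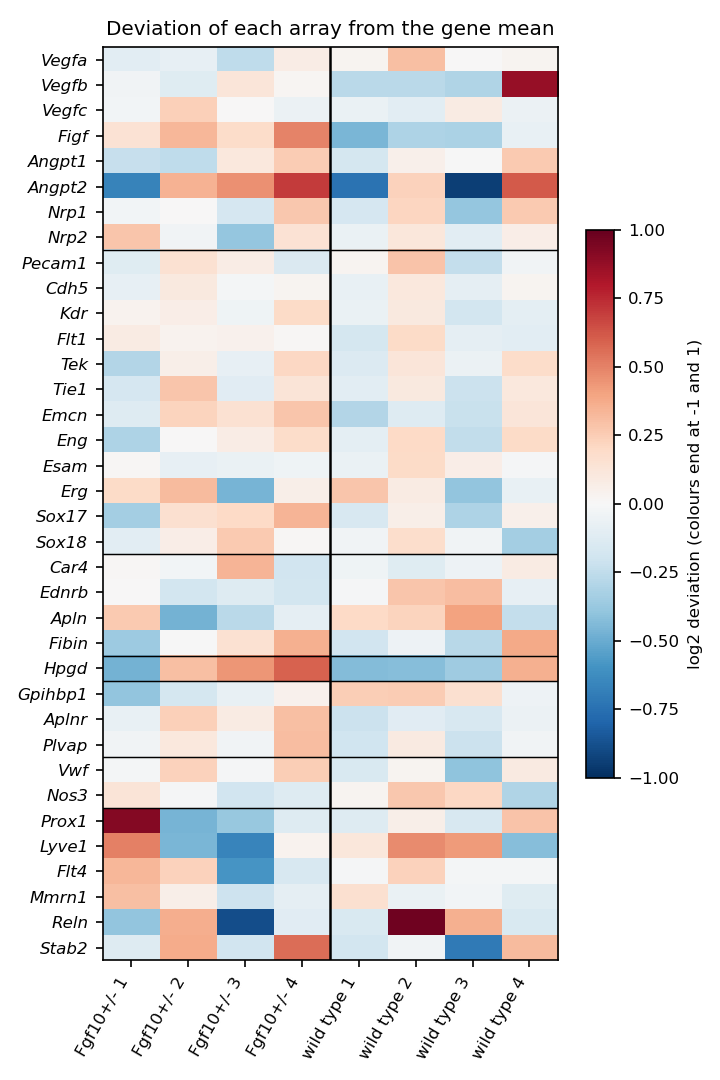
Deviation of each array from the gene's mean over 8 arrays, in log2 units, for the 36 genes (rows, with lines between roles) and the 8 arrays (columns, Fgf10+/- left of the line and wild type right). Figf is the 1 row that is high in all 4 Fgf10+/- arrays and low in all 4 wild-type arrays, and Angpt2 and Hpgd vary within both groups.

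Of the 6 measured lymphatic genes 2 had a higher and 4 a lower mean, and 3, Prox1, Flt4 and Reln, were dim, with mean signals of 2.62 to 4.45. The median difference of the 6 was -0.06 with no settled sign, as it was -0.28 without Fgf10+/- replicate 1 and 0.09 without Fgf10+/- replicate 3. Reln, a secreted glycoprotein of lymphatic endothelium, was 2.23, 2.99, 1.74 and 2.51 in the lungs labelled Fgf10+/-, against 2.47, 3.60, 2.98 and 2.47 in wild-type lungs. Most of these values lie under the array median, and the difference was -0.51 (SE 0.33, limma adjusted p = 0.634), or -0.27 without wild-type replicate 2. Stab2, a scavenger receptor for hyaluronan, was 5.22, 5.72, 5.15 and 5.90 in the lungs labelled Fgf10+/-, against 5.16, 5.31, 4.64 and 5.66 in wild-type lungs (difference 0.30, SE 0.26, limma adjusted p = 0.725). The Stab2 difference was 0.12 without wild-type replicate 3 and 0.17 without Fgf10+/- replicate 4. The groups overlapped for both genes.

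The brighter lymphatic genes did not part the groups either. Lyve1, a hyaluronan receptor that some macrophages share, was 9.96 ± 0.52 in the lungs labelled Fgf10+/- and 10.25 ± 0.42 in wild-type lungs (SD, n = 4 each). Mmrn1, a secreted multimerin, was 7.70 ± 0.22 in the lungs labelled Fgf10+/- and 7.68 ± 0.12 in wild-type lungs. Prox1, the transcription factor that specifies lymphatic fate, was 4.30, 2.91, 3.00 and 3.25 in the lungs labelled Fgf10+/-, against 3.25, 3.44, 3.22 and 3.66 in wild-type lungs. These values lie around the array median, and the 95% interval of the difference was -0.73 to 0.67.

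Other vascular genes, listed from general knowledge of the tissue, also had no member past the adjusted test. These lists were drawn up with earlier results of these data known. Their shares beside those of all genes are thus descriptions and not independent support. Of 30 further endothelial genes 0 passed the adjusted test, 14 had a higher and 16 a lower mean, and the median was -0.01. Myct1, a membrane protein of endothelium, had the smallest p, at 8.25 ± 0.26 in the lungs labelled Fgf10+/- and 7.75 ± 0.12 in wild-type lungs (difference 0.50, SE 0.15, limma adjusted p = 0.272), with groups apart. Mef2c, a transcription factor, differed by 0.55 (SE 0.28) with groups overlapping. Acvrl1, the BMP9 receptor ALK1 and singled out after its values were seen, was apart in the other direction (-0.18, SE 0.09, adjusted p = 0.547). Of 17 arterial and tip cell genes 0 passed and 0 had groups apart, where 7.39% of all genes were apart. Igfbp3 (0.42) and Nid2 (0.21) had the smallest p of these.

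Of 7 venous genes 0 passed the adjusted test, 4 had a higher and 3 a lower mean, and 2 were apart, both higher, where 2.99% of all genes were apart and higher. Slc6a2, a noradrenaline transporter, was 6.02, 6.27, 6.38 and 6.15 in the lungs labelled Fgf10+/-, against 5.54, 5.84, 5.83 and 5.42 in wild-type lungs (difference 0.55, SE 0.14, adjusted p = 0.228). Vcam1, an adhesion molecule for leukocytes that mesenchyme also expresses, was 10.77 ± 0.05 in the lungs labelled Fgf10+/- and 10.51 ± 0.08 in wild-type lungs (0.26, SE 0.09, adjusted p = 0.354). The list median of 0.17 had no settled sign, as it was -0.08 with all features of a gene averaged, -0.02 without Fgf10+/- replicate 1 and -0.04 without Fgf10+/- replicate 2.

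A broader list of vessel signals outside the 36 held 15 measured genes. It covers VEGF, Tie and endothelin signalling and also genes outside these pathways, such as Adm and Thbs2. Of the 15, 0 passed, 12 had a higher and 3 a lower mean, and the median was 0.19. At an unadjusted p under 0.05 in limma there were 3 of the 15 (20%), all higher, against 4.74% of all genes higher. They were Adm, Thbs2 and Svep1, so the count is not one of VEGF, Tie and endothelin genes alone. Groups were apart for 2 (13.3%), Adm and Svep1, both higher, against 2.99% of all genes apart and higher. As the list was drawn up with earlier results known, neither share is read as a result about vessel signals. Adm, which encodes the vasoactive peptide adrenomedullin, was 5.56, 5.93, 6.43 and 6.94 in the lungs labelled Fgf10+/-, against 4.72, 5.52, 4.74 and 5.47 in wild-type lungs. The lowest lung labelled Fgf10+/- lay just above the highest wild-type lung, and the difference was 1.10 (SE 0.33, limma adjusted p = 0.275). Thbs2, an inhibitor of angiogenesis from fibroblasts, differed by 0.88 (SE 0.31, adjusted p = 0.342) with groups overlapping through 1 wild-type lung. Svep1, a matrix ligand of TIE1, differed by 0.33 (SE 0.12, adjusted p = 0.353). Of 6 further lymphatic genes 0 passed, with Nts (1.02, SE 0.53) and Itga9 (-0.18, SE 0.14) at the smallest p. Pericyte markers, the mural neighbours of the capillaries, had 6 higher and 3 lower means among 9, and 0 passed.

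**Figure D5:**
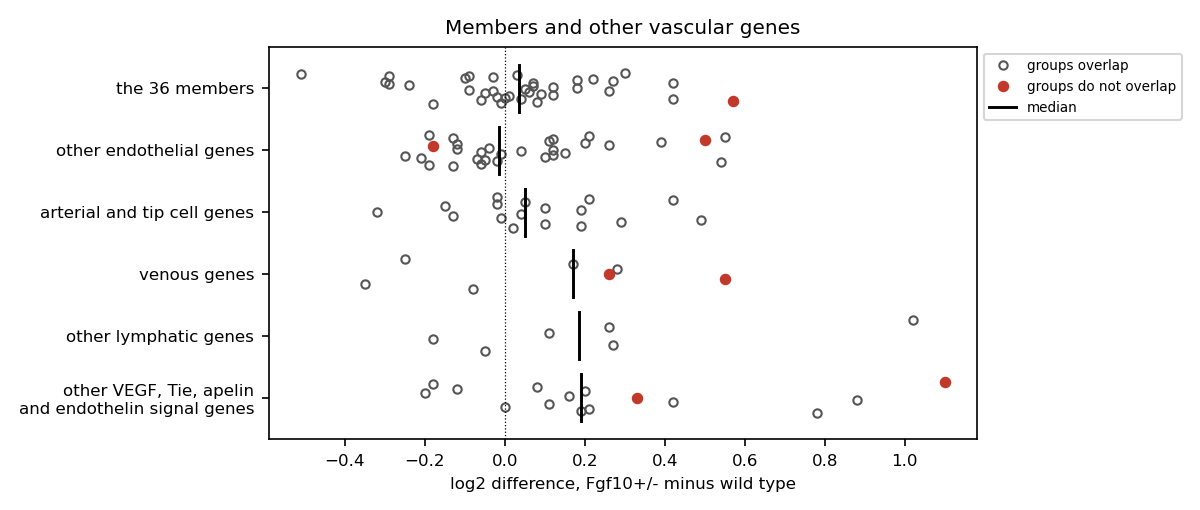
Log2 difference (Fgf10+/- minus wild type, horizontal axis) of each gene in the 36 and in 5 other vascular lists. Filled points are genes whose groups do not overlap and vertical bars are list medians, which lie between -0.01 and 0.19.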

How the data were processed

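RNA of 8 lungs was measured on 1-colour Agilent arrays. The deposited values are log2 signals that already share 1 distribution, with sorted arrays at most 0.0042 apart. The submitters' processing notes name limma, without a version. No source used here gives the background correction or spot flags. Of 62976 features, 31465 had 1 symbol in the platform annotation. Symbols were updated through RefSeq accessions, which matched 29050, and 40 named features blank on an array were dropped. The feature with the highest mean stood for its gene. No filter on dim genes was used, and all 36 members were tested.

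Genotypes were compared with limma 3.58.1 under R 4.3.3, with genotype as the single term of lmFit, moderation by eBayes and two-sided p-values adjusted by Benjamini-Hochberg over 20842 genes (threshold 0.05), with a two-sided exact permutation test over 70 assignments for single genes. The limma fit was tested on simulated data. Of 100 genes changed by 1 log2 unit 51 were recovered, and of 100 changed by 2 units 76, with 10 false calls. The number of arrays, 4 per group, limits the precision. Labels give no slide, litter or scan date, so no batch was tested.

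The members, lists and tests were chosen with earlier results of these data known. Named were, in each role, the genes whose groups do not overlap or otherwise the 2 with the smallest p, always Aplnr, Gpihbp1, Car4, Kdr and Vegfa, and 2 genes per other list. Further genes described singly, Svep1 among them, were chosen after their values were seen. Hpgd has no role in the grouping used. Alternatives covered features, scaling, dim genes, variance model, array weights, the replicate block and each lung left out. Figures were drawn with matplotlib 3.10.9.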

Additional observations from a re-analysis of the deposited data

Results flagged for a closer look

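In 72 groups of 4 lungs (36 genes in 2 genotypes), 4 held a lung far from its group, relative to the spread of the others. That is near the number that chance gives, about 1 in 20 groups. All 4 were wild-type lungs. Wild-type replicate 4 had 11.55 for Hpgd, with the others at 10.76 to 10.84, and 8.86 for Vegfb, with the others at 7.69 to 7.72. Wild-type replicate 2 had 12.60 for Vegfa, with the others at 12.31 to 12.33, and 4.68 for Flt4, with the others at 4.43 to 4.44. Without wild-type replicate 4 the Hpgd difference was 0.61 and the Vegfb difference 0.28, and without wild-type replicate 2 the Vegfa difference was -0.11 and the Flt4 difference -0.03.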

How the results depend on the processing

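Of the 14 named genes, 13 kept their direction under every alternative run. Car4, at 0.07, was -0.04 with all features of the gene averaged, -0.04 as the median of its features and -0.04 to 0.14 with each lung left out in turn, the lowest without Fgf10+/- replicate 3. Figf passed under 2 alternatives, and no other member passed under any. Genes passing over the whole array numbered 0, and 38 with genes below the 25th percentile of signal left out, 288 with those below the median left out, 414 with a variance trend and 3 with array weights, and 0 to 1 with each lung left out in turn. Members passing numbered 1 with the variance trend and 1 with genes below the median left out. Members at an unadjusted p under 0.05, 2 in the main setting, numbered 5 with a variance trend, 5 with array weights, and 1 to 6 with each lung left out in turn. The share of all genes is given for the main setting only, so these moves cannot be told from moves of the whole array. With every feature on its own 10 features of members did, all of them Figf, so that 1 member did. The angiogenic median was 0.47 with every feature on its own, where the 10 Figf features count singly, and 0.17 with wild-type replicate 4 and Fgf10+/- replicate 3 left out, a setting chosen after seeing the data. With every feature on its own the large vessel median was -0.13, the venous median -0.00 and the signal list median 0.10. The venous median, 0.17, was -0.08 with features averaged, -0.03 with the Xist covariate, and -0.04 to 0.29 with each lung left out. Medians near 0 also changed sign with a lung left out, with ranges of -0.02 to 0.09 for pan-endothelial, -0.06 to 0.10 for angiogenic, -0.28 to 0.09 for lymphatic, -0.06 to 0.06 for other endothelial and -0.01 to 0.15 for arterial genes. The cause of these moves was not tested. With the replicate number as a block 0 genes and 0 members passed and 2 members lay under an unadjusted p of 0.05. Same-numbered lungs deviated together with correlations of 0.018 to 0.113. These low values cannot show whether such lungs share a litter or slide, which the labels do not give. Genes near the floor, among them Prox1, Flt4 and Reln, are limited by signal over background.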
